A study of Arabidopsis thaliana with 14 samples.

Results

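Dark-grown Arabidopsis seedlings of the wild type Col that had been treated with a brassinosteroid and then given 2 h of light were compared with seedlings that had the same treatment and stayed in the dark. The arrays were chosen by their sample labels alone, 2 against 2, so the comparison uses 4 of the 14 arrays of the series. After light, the co-chaperones Hop3 and AT5G48570 and all tested members of the nuclear photosystem, antenna and flavonoid lists (6, 3 and 6 genes) were higher. Of 6 auxin response genes 4 were lower, as were MCCA and IVD of leucine breakdown.

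A seedling that germinates in the dark grows a long hypocotyl, keeps its cotyledons closed and holds etioplasts in place of chloroplasts. Light seen by phytochromes and cryptochromes ends this programme: it inactivates the COP1 ubiquitin ligase, which otherwise removes the transcription factors HY5 and HYH, and photosynthesis genes are then switched on. Brassinosteroids, plant steroid hormones perceived by the receptor kinase BRI1, act on the side of dark growth, since they promote cell elongation, and mutants that cannot make them look partly light-grown in the dark. The series asks how this hormone acts in the change from dark to light growth.

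The BL-treated light group was 7 days old, grown in the dark, treated with the hormone and moved to light for 2 h. The BL-treated dark group was 7 days old and had the hormone but no light. Sample titles call the hormone BL (brassinolide) in the dark group and BR (brassinosteroid) in the light group, and the descriptions of both say BR. The sources used here give no dose, no length of treatment and no light intensity. Set beside them are untreated Col seedlings of 7 days, given 2 h of light or left in the dark, and 7-day-old seedlings of det2, a brassinosteroid-deficient mutant, grown in the light or in the dark. One more det2 group, 14 days old and moved from light to 8 h of dark, entered only the shared estimate of the spread. Each of the 7 groups had 2 arrays. No wild-type seedlings were moved while kept in darkness, so what light did and what handling did cannot be told apart. The labels do not say whether the replicates were grown separately; a p-value here reflects array-to-array spread, part or all of which may be technical.

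Median signal on the 14 arrays lay between 187.6 and 218.8. Replicates correlated across probe sets at r = 0.972 in the BL-treated light group and r = 0.978 in the BL-treated dark group, and at r = 0.958 or above in all groups. Of 22810 probe sets, 17787 were bright enough to be tested. Only 9901 of these are named with a single gene here, so most lists below hold a fraction of their members, and a probe set with no name is not described. Of 48 markers of root, seed, guard cell and stem or vascular tissue, 3 had a named probe set (none for seed or stem), and none of the 3 passed the test. FMA, a guard cell factor, read 94.5 and 71.3 in the BL-treated light group and 89.5 and 76.8 in the BL-treated dark group. The root hair expansin EXPA7 had signals of 12.6 and 91.8 in the BL-treated light group and 18.4 and 126.5 in the BL-treated dark group, replicate 1 before replicate 2 here and below. EXPA18, another root hair expansin, read 79.7 and 136.7 in light, against 68 and 216.9 in the dark. Both were lower on the replicate 1 arrays than on the replicate 2 arrays of both groups, and the part of tissue makeup in the results below was not tested. RNA came from seedlings and not from sorted cells, so fewer cells of a type and less RNA per cell cannot be told apart.

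Light moved 3087 probe sets past an adjusted p of 0.05 in BL-treated seedlings, 17.4% of those tested (limma, Benjamini-Hochberg adjustment). Of these, 1596 rose (8.97%) and 1491 fell (8.38%). The rises went further than the falls. At least 2-fold changes numbered 1001 upward and 571 downward, at least 4-fold changes 263 and 70, and at least 10-fold changes 47 and 3. All 3087 changed the same way in both replicate pairs (light 1 against dark 1, light 2 against dark 2) and had groups that did not overlap, as was also true of 56.6% of all probe sets tested. Risers had a median signal of 965.8 in light and 369.9 in the dark, and fallers 402.7 in light and 815.1 in the dark. The median change over all probe sets was -0.06 on the log2 scale. Without replicate 1 of the light group 2004 probe sets passed, and without replicate 2 of the dark group 1989 passed. The falls changed more than the rises: they numbered 891 and 1220 without light replicates 1 and 2, and 852 and 815 without dark replicates 1 and 2, against 1113, 1410, 1242 and 1174 rises in the same order. The calls nearest to the threshold were AT2G34315 (adjusted p = 0.0496) and P1R1 (adjusted p = 0.04978) inside it, and AT2G40270 (adjusted p = 0.05014) and AT4G14615 (adjusted p = 0.05022) outside it.

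The largest rise among named genes belonged to AT5G48570, listed as ROF2 and FKBP65, a peptidyl-prolyl isomerase that binds the chaperone Hsp90. Its signal was 8067 and 3963 in BL-treated light seedlings, against 107.5 and 79.6 in BL-treated dark seedlings. The arrays of the light group were both above those of the dark group, as the rule for naming required, and replicate 1 was the higher in each. This was a 52.2-fold rise (log2 change 5.71 ± 0.35 SE, adjusted p = 2.65e-07). Hop3, an adaptor between the chaperones Hsp70 and Hsp90, read 3514 and 1554 in light, against 43.6 and 20.2 in the dark. It rose 50.7-fold (log2 change 5.66 ± 0.44 SE, adjusted p = 1.52e-06), again with the higher signals on the replicate 1 arrays. THI2.2, a thionin of the antimicrobial peptide class, had signals of 569.7 and 1070 in light, against 13.6 and 14.1 in the dark. Its dark signals were below the constant of 16 added before taking logs, so its rise was at least 26.7-fold (adjusted p = 0.000104). MSRB6, a methionine sulfoxide reductase that repairs oxidised methionine, read 938.6 and 553 in light, against 46.2 and 35.2 in the dark, a 13.1-fold rise (adjusted p = 4.17e-07).

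The other 8 of the 12 rises named by rule carry only a locus identifier. AT5G51440 rose 31-fold to 4214 and 2867, against 130.1 and 70.6 in the dark. AT5G12110 rose 30.9-fold to 6614 and 4963, against 198.3 and 145.1 in the dark. The changes in the pairs were 4.86 and 5.06 on the log2 scale for AT5G51440, and 4.95 in both for AT5G12110. AT1G60590, AT3G56290, AT4G33660, AT2G20560, AT5G42760 and AT3G57020 rose between 12.8-fold and 17.3-fold. Each of these 8 loci had both light arrays above both dark arrays, as the rule for naming required.

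**Figure D1:**
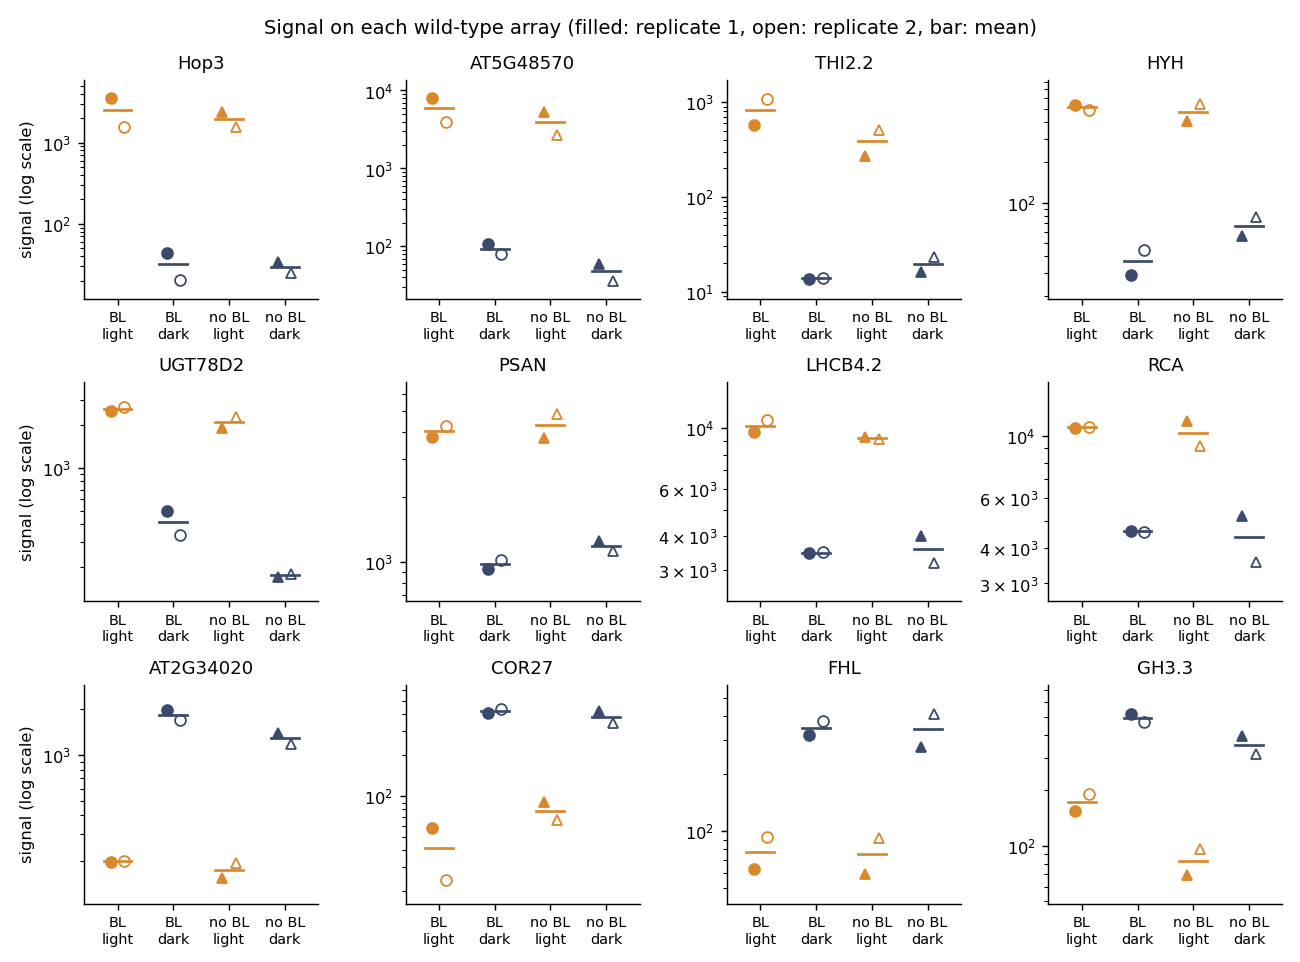
Signal of 12 genes on each wild-type array, on a log scale; orange marks light and blue marks dark, circles BL-treated and triangles untreated seedlings, with filled symbols for replicate 1, open symbols for replicate 2 and bars for the mean of 2 arrays. For the first 8 genes both BL-treated light arrays lie above both BL-treated dark arrays, and for AT2G34020, COR27, FHL and GH3.3 they lie below.

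Chaperones help proteins fold and keep damaged ones from clumping, and their co-chaperones choose the clients and drive the cycle. Of 18 co-chaperones and chaperones tested, 8 rose and 2 fell, with a median change of 0.91 against -0.06 for all probe sets. AT5G48570, the largest named rise, is among the 8 because it was added to this family by its locus. With the replicate number as a block over the wild-type arrays 11 rose and 1 fell. The Hsp70-binding protein Fes1A read 3027 and 1972 in BL-treated light seedlings, against 350.2 and 309.6 in BL-treated dark seedlings, and rose 7.12-fold (adjusted p = 3.06e-06). HSA32, a heat-induced protein needed for lasting thermotolerance, read 1037 and 399.5 in light, against 127.5 and 107.4 in the dark. It rose 4.97-fold (adjusted p = 0.000195), and the fold was 3.12 without replicate 1 of the light group and 7.92 without replicate 2 of it. Close relatives did not all move together. Hop1 changed by -0.19 (adjusted p = 0.584) and Hop2 by 0.75 (adjusted p = 0.0712), while Fes1B changed by -0.34 (adjusted p = 0.308) and Fes1C fell by 0.55 on the log2 scale (adjusted p = 0.0412). On the heat shock list 5 of 32 symbols were tested, of which 3 rose and 2 did not pass, with a lowest change of -0.19. The summed signal of these 5 was 15307 and 7372 in light, against 1797 and 1541 in the dark. AT5G48570 and Hop3, described above, made up most of the sum in light.

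Few nuclear genes of the photosynthetic apparatus are named here, 6 of 35 symbols on the photosystem list and 3 of 20 on the antenna list. All 6 tested subunits of the photosystems and the electron transport chain rose, between 1.03 and 2.03 on the log2 scale. PSAN, a subunit on the lumen side of photosystem I, read 3822 and 4265 in BL-treated light seedlings, against 929.1 and 1023 in BL-treated dark seedlings. Its 4.09-fold rise (adjusted p = 9.17e-07) was nearly equal in the pairs, 2.02 and 2.04 on the log2 scale. PSBY, a small protein of photosystem II, rose 3.34-fold, PSAE-1, a stromal subunit of photosystem I, rose 2.69-fold, and PSB27, which helps assemble photosystem II, rose 2.47-fold.

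All 3 tested genes of the antenna, LHCB4.1, LHCB4.2 and LHCB4.3, rose; they encode forms of CP29, which passes light energy to photosystem II. LHCB4.2 read 9656 and 10709 in light, against 3467 and 3506 in the dark (2.91-fold, adjusted p = 2.59e-06). LHCB4.3 read 1326 and 1617 in light, against 279.5 and 242.4 in the dark (5.36-fold, adjusted p = 1.04e-06), and LHCB4.1 rose 1.96-fold. On every one of these probe sets both light arrays were above both dark arrays, as on every probe set called as a rise. In carbon fixation and photorespiration 3 of 4 genes rose. HPR, the peroxisomal hydroxypyruvate reductase of photorespiration, rose 4.34-fold to 5734 and 6449, against 1673 and 1154 in the dark. RCA, which reactivates Rubisco, rose 2.33-fold, and SBPASE of the Calvin cycle rose 2.03-fold. The remaining gene, PRK, changed by 0.59 (adjusted p = 0.0764).

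Plastid assembly and pigment genes moved less evenly. Of 34 nuclear genes for chloroplast assembly and redox control, 11 rose and 0 fell, with a median of 0.47. Without replicate 1 of the light group or replicate 2 of the dark group, 6 of these rises passed. Cpn60beta2, a subunit of the plastid chaperonin that folds newly imported proteins, read 7063 and 5239 in light, against 1201 and 846.3 in the dark, a 5.95-fold rise (adjusted p = 1.15e-06). Its relatives Cpn60beta3 and Cpn60beta4 changed by 0.14 and 0.37 (adjusted p = 0.744 and 0.312). CaS, a calcium-binding thylakoid protein, rose 2.96-fold, and CRR42, needed to assemble the chloroplast NDH complex, rose 2.5-fold. Of 8 genes of chlorophyll and tetrapyrrole synthesis, 2 rose and 1 fell. CHLM, the magnesium protoporphyrin methyltransferase, rose 2.27-fold to 3808 and 3708, against 1515 and 1795 in the dark. PORB, the reductase that needs light to turn protochlorophyllide into chlorophyllide, fell to 6190 and 5031 in light, against 8302 and 9543 in the dark. This fall of 1.59-fold (adjusted p = 0.00504) did not pass without replicate 2 of the dark group (adjusted p = 0.0527). HEME1, uroporphyrinogen decarboxylase, rose 1.71-fold, and this did not pass without replicate 2 of the light group or replicate 1 of the dark group (adjusted p = 0.0892 and 0.104).

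The 69 tested genes of the plastid genome itself differed between the replicate pairs, and none passed the test. With the replicate number as a block 1 of them fell over the wild-type arrays, none passed over all arrays, and 3 of them rose over the 4 arrays alone. Between replicate 1 arrays their median change was -0.78, and between replicate 2 arrays it was 0.94. Lower in the first pair and higher in the second were 57 of the 69, while 26.2% of all probe sets had opposite signs in the pairs. The summed plastid signal was 158172 and 199668 in BL-treated light seedlings, against 236366 and 125682 in BL-treated dark seedlings, so the light arrays lay between the dark ones. Untreated seedlings read 177308 and 186314 in light, against 151704 and 135973 in the dark. With replicate 1 of the dark group left out 8 plastid genes rose, and with replicate 2 of the dark group left out 14 fell. A direction for plastid-encoded RNA was therefore not detectable with these arrays. The plot of the replicate pairs sets the plastid genes in the upper left and the nuclear subunits along the diagonal.

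**Figure D2:**
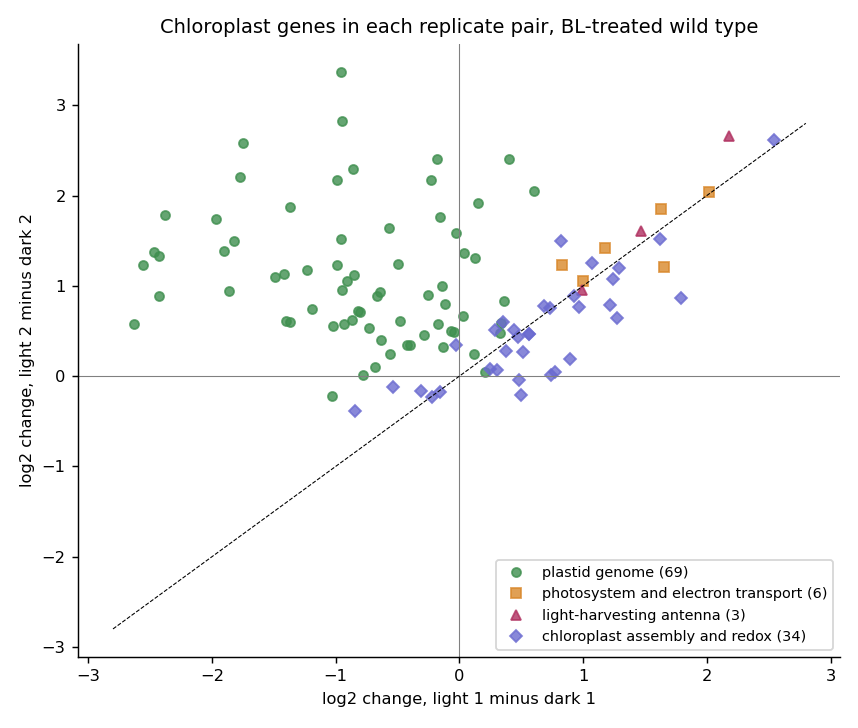
Log2 change with light in BL-treated wild type between the replicate 1 arrays (horizontal) and between the replicate 2 arrays (vertical), with a point per gene and a dashed line where both pairs are equal. The 69 plastid-encoded genes lie mostly below 0 in the first pair and above 0 in the second, while the 6 photosystem and 3 antenna genes are above 0 in both.

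Flavonoids and their glycosides absorb ultraviolet light and colour young seedlings, and their synthesis is a classic light response. Of 24 symbols on the flavonoid list 6 are named here, several of them glycosyltransferases, so most steps of the pathway are not covered. All 6 tested genes of the list rose, with a median of 2.43. UGT78D2, which puts glucose on flavonols and anthocyanins, read 2510 and 2662 in BL-treated light seedlings, against 497.6 and 334.7 in BL-treated dark seedlings (6.13-fold, adjusted p = 4.46e-06). UGT84A1, which makes glucose esters of hydroxycinnamic acids, read 201.7 and 141 in light, against 4.1 and 5.1 in the dark, below the added constant. Its rise was at least 8.98-fold (adjusted p = 7.51e-05). CHIL, a chalcone isomerase-like protein, rose 5.62-fold to 1728 and 1679, against 292.9 and 286.9 in the dark. UF3GT, an anthocyanin glycosyltransferase, read 1832 and 2173 in light, against 502.3 and 279 in the dark, a 5.14-fold rise (adjusted p = 0.000782). The wider family of UDP-glycosyltransferases, many of which act on hormones and defence compounds, went both ways: 16 of 39 tested members rose and 7 fell. UGT78D2, UGT84A1, UF3GT and UGT78D1 of the flavonoid list are among the 16. The falls numbered 4 without replicate 1 of the light group and 3 without replicate 2 of the dark group. UGT76E11 rose 5.59-fold (adjusted p = 0.000369).

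Among regulators of the light response, HYH and FHL moved in opposite directions. HYH, the HY5 homologue that activates light-induced genes, read 536.9 and 490.9 in BL-treated light seedlings, against 28.9 and 44 in BL-treated dark seedlings. It rose 10.2-fold (log2 change 3.35 ± 0.27 SE, adjusted p = 2.48e-06). FHL, which helps carry phytochrome A into the nucleus, read 63.2 and 92.4 in light, against 321 and 377.5 in the dark, and fell 3.93-fold (adjusted p = 0.000265). Of 14 basic leucine zipper factors tested, HYH was the single riser and 5 fell. BZIP61 fell 2.04-fold (adjusted p = 0.00206) and bZIP44 fell 1.99-fold. The bZIP44 call was lost without replicate 1 of the light group or replicate 2 of the dark group (adjusted p = 0.192 and 0.197), and without the last of these 1 fall in the family passed, against 3 without any other single array.

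The clock list had 2 tested genes, which also diverged. GI, the scaffold protein of the clock and of flowering time control, read 2765 and 2070 in light, against 737.2 and 295.1 in the dark. Its 4.98-fold rise (adjusted p = 0.00745) was lost without replicate 1 of the light group or replicate 2 of the dark group (adjusted p = 0.0621 and 0.0863), and the fold was 3.2 without the last and 7.74 without replicate 1 of the dark group. COR27, a cold- and light-regulated gene that acts in the clock, read 58.9 and 24.4 in light, against 410.1 and 440 in the dark. It fell 8.01-fold (adjusted p = 3.6e-06).

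**Figure D3:**
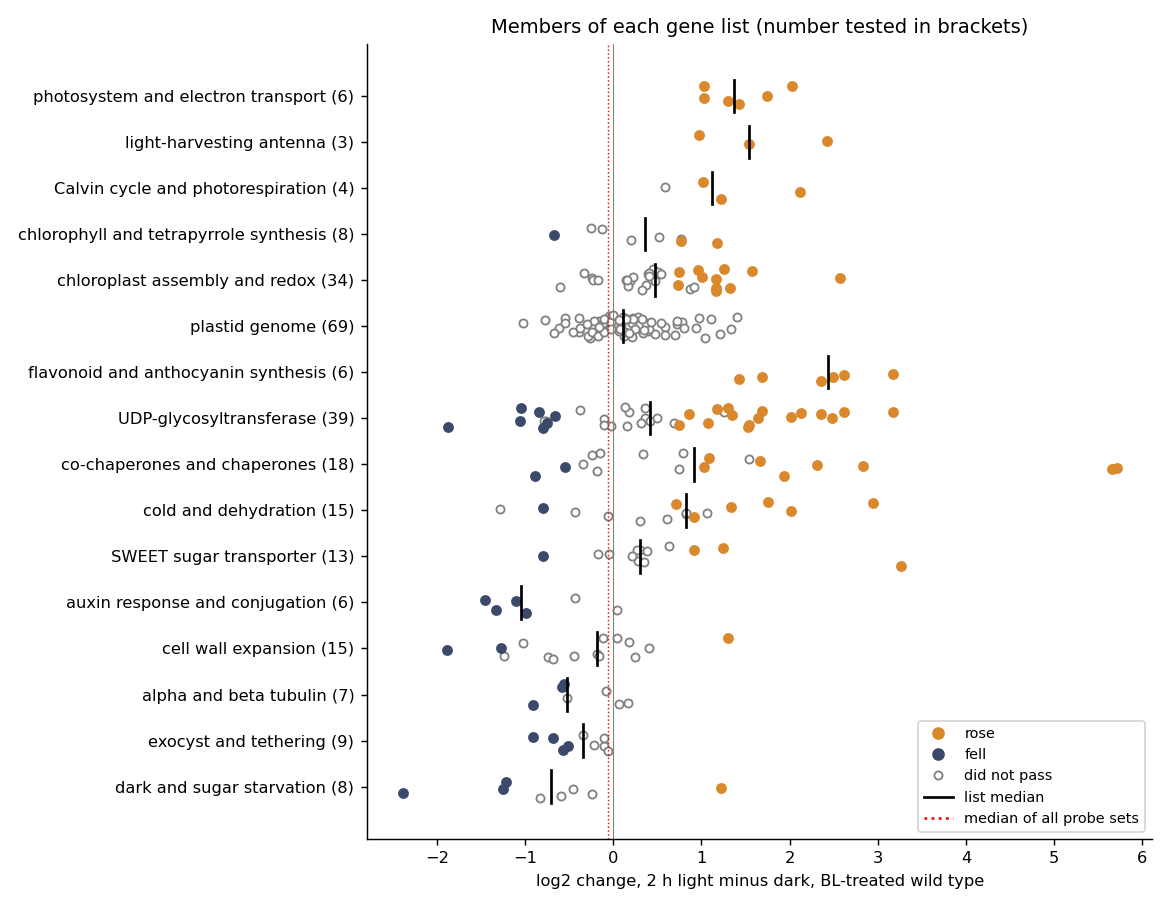
Log2 change with 2 h of light in BL-treated wild type for every tested member of 16 gene lists, with filled orange points for rises, filled blue points for falls, open points for genes that did not pass, a black bar for the list median and a dotted red line for the median of all probe sets (-0.06). Photosystem, antenna and flavonoid genes lie wholly to the right, and the 4 falls of the auxin list lie to the left.

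Sugar transport and starvation genes were on both sides. SWEET2, a sugar transporter of the vacuole membrane, read 1480 and 1457 in BL-treated light seedlings, against 163.7 and 118.3 in BL-treated dark seedlings, a 9.56-fold rise (adjusted p = 2.65e-07). Of 13 tested transporters with a SWEET symbol 3 rose and 1 fell, and SAG29 below is not counted among them. SWEET1, a glucose transporter, rose 1.87-fold, and SWEET13, a sucrose exporter, rose 2.36-fold, the last not passing without replicate 1 of the light group or replicate 2 of the dark group (adjusted p = 0.0757 and 0.0716). Of 8 genes known to be raised by darkness and sugar shortage, 3 fell and 1 rose. With the replicate number as a block over all arrays 5 fell and 1 rose. MCCA and IVD, both lower, belong to the breakdown of leucine in mitochondria. MCCA, a subunit of methylcrotonyl-CoA carboxylase, fell to 397 and 265.8 in light, against 2684 and 1174 in the dark (5.25-fold, adjusted p = 0.00206), with 3.49-fold without replicate 1 of the dark group and 7.91-fold without replicate 2 of it. IVD, isovaleryl-CoA dehydrogenase, fell to 658.5 and 650 in light, against 1646 and 1505 in the dark (2.37-fold, adjusted p = 0.000353). AKINBETA1, a regulatory subunit of the SnRK1 energy-sensing kinase, fell 2.33-fold and the senescence-associated sugar transporter SAG29 rose 2.33-fold. Neither call held without replicate 1 of the dark group (adjusted p = 0.115 for AKINBETA1 and 0.256 for SAG29). Both were also lost without replicate 1 of the light group (adjusted p = 0.054 and 0.135) and without replicate 2 of it (adjusted p = 0.0891 and 0.0754).

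Stress and redox genes rose in part. Of 15 cold and dehydration genes 6 rose and 1 fell, and 3 rises passed without replicate 1 of either group. With the replicate number as a block over the wild-type arrays 7 rose and 2 fell. TIL, a lipocalin that protects membranes in heat and cold, read 10135 and 7467 in light, against 2531 and 2596 in the dark (3.38-fold, adjusted p = 1.27e-05). LEA4-5, a hydrophilic protein of drying seeds, read 1860 and 2020 in light, against 112.5 and 479 in the dark. Its 7.75-fold rise (adjusted p = 0.00615) was 3.95-fold, and did not pass, without replicate 1 of the dark group (adjusted p = 0.0724). Without replicate 2 of that group it was 15.2-fold. COR15A, a cryoprotective chloroplast protein, rose 4.04-fold (adjusted p = 0.0467). That call was lost with any of the 4 arrays left out (adjusted p between 0.0646 and 0.247). Of 9 antioxidant genes 4 rose and 2 fell, and 1 fell with that block. GR1, a glutathione reductase, rose 2.09-fold to 5279 and 4521, against 2271 and 2395 in the dark. PUB19, a ubiquitin ligase of drought signalling, rose 6.08-fold to 1219 and 992.9, against 124.9 and 223.3 in the dark. The tau-class glutathione transferase GSTU18 rose 3.68-fold and GSTU16 rose 2.18-fold, while 6 of the 9 tested members of that class did not pass and 1 fell (0 with the block).

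Falls were shallower. AT3G13760 fell 8.98-fold, the most among the 12 named by rule, to 56.9 and 4.5 in BL-treated light seedlings, against 360.4 and 304.2 in BL-treated dark seedlings. The light arrays differed widely, and the fold was 4.76 without light replicate 2. Without light replicate 1 the remaining light signal was below the added constant, and the fold was at least 16.9. AT2G34020 fell 8.62-fold to 197.1 and 200.8, against 1972 and 1710 in the dark (adjusted p = 3.47e-07). AT1G72290 fell 8.32-fold to 12.6 and 81.2, against 316.3 and 562.6 in the dark, and its fold was 4.51 without light replicate 1. Without light replicate 2 the remaining light signal was below the added constant, and the fold was at least 15.3. The other 8 loci beside COR27 fell between 4.96-fold and 7.06-fold: AT5G02580, AT3G01260, AT5G57760, AT4G11610, AT3G46270, AT1G76240, AT3G15450 and AT1G44050. None of them carries more than a locus identifier here. AT4G11610 read 387.5 and 355.3 in light, against 2377 and 2272 in the dark. AT3G15450 read 924.8 and 954.7 in light, against 4920 and 4860 in the dark.

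Auxin drives the elongation of the hypocotyl in darkness and shade. Of 6 auxin response and conjugation genes tested, 4 fell and 0 rose, with a median of -1.05. The same 4 fell with each array left out in turn. GH3.3, which joins auxin to amino acids, read 153.9 and 189.7 in BL-treated light seedlings, against 518.3 and 469.3 in BL-treated dark seedlings (2.72-fold, adjusted p = 0.000153). IAA29, a repressor of auxin response induced in shade, read 72 and 126.1 in light, against 275.4 and 255.5 in the dark (2.52-fold, adjusted p = 0.00191). GH3.17 fell 2.14-fold and the homeodomain factor HAT2 fell 1.99-fold. IAA20, counted in the wider Aux/IAA and GH3 family, fell 3.06-fold (adjusted p = 0.00379). In that family 4 of 9 tested members fell, 5 did not pass, and the median was 0.04.

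Of 15 cell wall loosening genes tested, 2 fell and 1 rose, a share near the 17.4% called over all probe sets, and the median was -0.19. With the replicate number as a block over the wild-type arrays 5 fell and 1 rose. EXPA9, an expansin, fell 2.42-fold to 1411 and 2969, against 4506 and 5494 in the dark. XTH33, a xyloglucan-modifying enzyme, fell 3.72-fold to 291.8 and 796.1, against 1457 and 2326 in the dark. XTH32, of the same enzyme family, rose 2.47-fold to 2880 and 4733, against 1333 and 1656 in the dark. Each of these 3 calls was lost with some single array left out. EXPA9 was lost without replicate 1 of the light group (adjusted p = 0.051) or replicate 2 of the dark group (adjusted p = 0.0532). XTH33 was lost without replicate 1 of the light group or either dark array (adjusted p = 0.248, 0.0523 and 0.174), with a fold of 2.29 without light replicate 1 and 6.03 without light replicate 2. XTH32 was lost without replicate 2 of the light group (adjusted p = 0.0764) or replicate 1 of the dark group (adjusted p = 0.0631). EXPA8, a brassinosteroid-raised expansin, read 1777 and 3415 in light, against 2393 and 3150 in the dark, with overlapping groups (adjusted p = 0.721). EXO, a brassinosteroid-raised growth gene of the cell wall, read 3926 and 3909 in light, against 7319 and 7900 in the dark. These groups did not overlap, but EXO did not pass (log2 change -0.95, adjusted p = 0.073). It passed when the 4 arrays were fitted alone (adjusted p = 0.00859), after quantile normalization (adjusted p = 0.0317) and with the replicate block over all arrays. It did not pass over the wild-type arrays alone, with or without the block.

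Over all probe sets 8.97% rose and 8.38% fell, the shares to set beside the counts of small families here and below. Of 7 tubulin genes 3 fell and 0 rose, and 0 fell when the 4 arrays were fitted alone with no block. TUB5 fell 1.88-fold to 1598 and 2535, against 3546 and 4082 in the dark. TUB6 fell 1.5-fold and TUB9 fell 1.47-fold, all 3 being beta tubulins. TUB6 did not pass without replicate 1 of the dark group (adjusted p = 0.0567). Of 11 IQD proteins, calmodulin-binding proteins that sit on microtubules and membranes, 3 fell and 1 rose. IQD26 fell 2.98-fold, IQD22 fell 2.47-fold and IQD28 fell 2.23-fold. Of 11 endoglucanases of glycosyl hydrolase family 9, 3 fell, among them GH9B13 and GH9B12, and 5 fell with the replicate number as a block over the wild-type arrays. GH9B17 rose 2.73-fold, a call lost without either light array or replicate 1 of the dark group (adjusted p between 0.117 and 0.309). GH9B13 read 2699 and 2764 in light, against 5606 and 5396 in the dark (2.01-fold, adjusted p = 0.00375). GH9B12 fell 2.67-fold, which did not pass without replicate 1 of the light group (adjusted p = 0.107) or replicate 2 of the dark group (adjusted p = 0.159).

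Of 9 genes for the exocyst and related trafficking complexes 4 fell, among them SEC10 and SEC15B of the exocyst, which tethers vesicles to the plasma membrane, and TPLATE of an endocytic adaptor. All 4 changes were under 2-fold, and with single arrays left out between 0 and 2 of them passed, 0 without replicate 1 of the dark group. Of 17 TBL genes, whose products acetylate wall polymers, 3 fell, led by TBL45 (1.95-fold, adjusted p = 0.00292), and 1 passed without replicate 1 of the light group or either dark array, while 6 fell with the replicate number as a block over the wild-type arrays. These 3 of 17 TBL genes are a share near the 17.4% called over all probe sets. Of 22 serine carboxypeptidase-like genes 1 rose, 1 fell and 20 did not pass, a smaller share than that. Among them scpl40 fell 2.94-fold to 104.9 and 165.5, against 335.1 and 522.6 in the dark, and scpl46 rose by 1.46 on the log2 scale. Among the lists with no calls, none of 14 beta-glucosidases and none of 3 gibberellin genes, 3 ethylene and cytokinin genes, 2 carotenoid genes or 2 plastid biogenesis genes passed. With that block RR16, a cytokinin response regulator, rose (adjusted p = 0.0432). The single called member of the 9 ATG8 autophagy genes, ATG8F, fell 1.45-fold, a call lost without replicate 1 of the light group (adjusted p = 0.0948) or replicate 2 of the dark group (adjusted p = 0.19).

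The untreated wild type gives the same 2 h step without BL. It shares no array with the BL-treated comparison. Light moved 3526 probe sets in untreated seedlings (19.8%), 1790 upward (10.1%) and 1736 downward (9.76%). Of the probe sets that rose with BL, 1306 also rose without it, 81.8% of the BL-treated list and 73.0% of the untreated list. Of those that fell with BL, 983 also fell without it, 65.9% and 56.6% of the lists. Opposite calls numbered 0. The changes correlated at r = 0.839 across the 17787 probe sets, which share arrays, scaling and seedlings of the same kind and are not independent replicates. Probe sets that rose with BL had a median change of 1.17 with BL and 1.16 without, and those that rose without BL had 1.02 with BL and 1.19 without. Each list was chosen in the comparison where its own median is the larger, so the gap in neither is a result.

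The difference between the light effects was tested directly as the effect with BL minus that without. Of 17787 probe sets 0 passed (0.0%), with a smallest adjusted p of 0.074 (limma). At an unadjusted p under 0.05 there were 662, fewer than the share of 0.05 that would lie there with no difference at all. With the replicate number as a block over the wild-type arrays 1037 lay there and 2 passed. The median standard error of this difference was 0.33 on the log2 scale, against 0.24 for the light effect with BL, so small differences were not detectable with 2 arrays a group. AT5G48570 rose by 5.71 with BL and 5.91 without, Hop3 by 5.66 and 5.41, LHCB4.2 by 1.54 and 1.36, and UGT78D2 by 2.62 and 3.45. HYH rose by 3.35 with BL and 2.56 without, and read 406.5 and 547.6 in untreated light seedlings, against 56.4 and 78.2 in untreated dark seedlings. EXPA8 changed by -0.16 with BL and fell by 1.1 on the log2 scale without it, and this difference of 0.94 ± 0.34 SE did not pass (adjusted p = 1.0). Without BL it read 1276 and 1124 in light, against 2507 and 2656 in the dark.

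**Figure D4:**
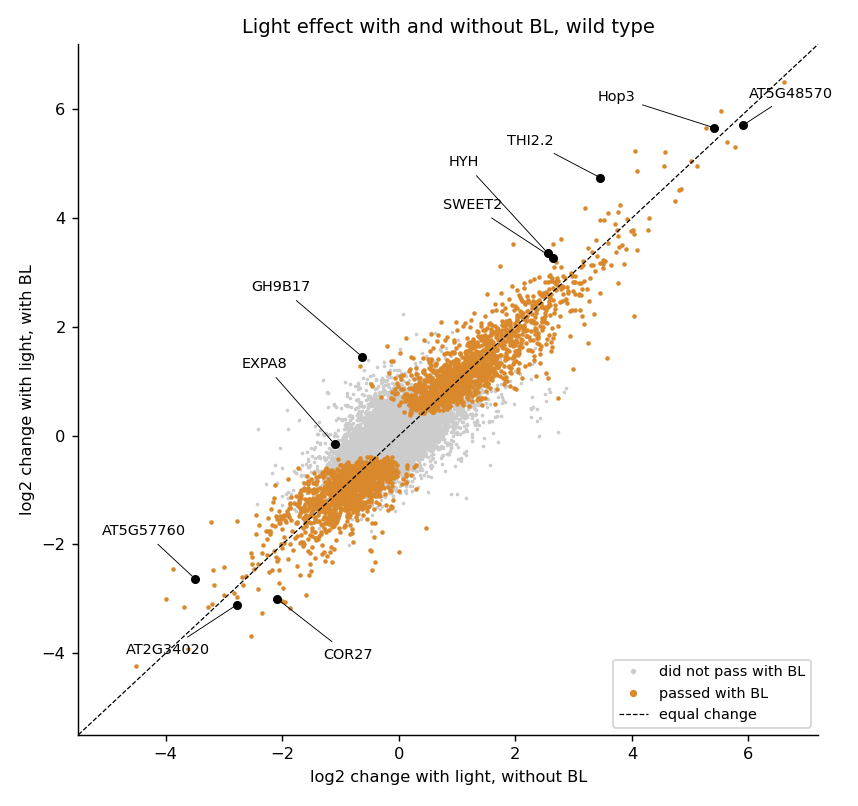
Log2 change with 2 h of light in BL-treated (vertical) and untreated (horizontal) wild type for 17787 probe sets, orange where the BL-treated change passed and grey elsewhere, with a dashed line of equal change and 10 genes marked in black. Points follow the dashed line (r = 0.839), and GH9B17 and EXPA8 lie above it.

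For comparison with lasting light, det2 seedlings grown for 7 days in the light were set against det2 seedlings of that age grown in the dark. This pair differs from the 2 h step in genotype, in hormone and in length of light, which cannot be told apart, and it shares no array with it. In it 6614 probe sets passed (37.2%), 3471 upward (19.5%) and 3143 downward (17.7%). Risers of the 2 h step with BL that also rose in det2 numbered 767 (48.1% of the first list, 22.1% of the second). Another 199 of the risers fell there (12.5% of the first list, against 17.7% of all probe sets). Fallers that also fell in det2 numbered 547 (36.7% and 17.4%), and 198 rose there (13.3% of the first list, against 19.5% of all probe sets). Changes correlated at r = 0.189 across probe sets. The direct test of the light effect in BL-treated wild type minus that in det2, chosen after the data had been seen, passed for 4045 probe sets (22.7%), 1824 with the higher effect in BL-treated wild type (10.3%) and 2221 with the lower (12.5%).

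The 12 rises named by rule divided on this measure. The co-chaperone AT5G48570 changed by -0.01 in det2 (adjusted p = 0.986), with mean signals of 164.2 in the light and 166.6 in the dark. Hop3 changed by -0.16 there (adjusted p = 0.809), and AT5G12110, AT5G51440, AT4G33660 and AT2G20560 did not pass either. Their light effects with BL were larger than in det2 by 4.16 to 5.82 on the log2 scale, and each of these 6 differences passed. These 6 were named for large rises with BL and grouped here for not passing in det2. That choice largely fixed the outcome of the test of the difference, so its passing is not a separate result. AT3G56290 rose in both, by 3.99 with BL and by 3.43 in det2 (adjusted p = 1.65e-06), and this difference did not pass (adjusted p = 0.335). MSRB6, AT1G60590, AT5G42760 and AT3G57020 also rose in det2. THI2.2 did not pass in det2 (adjusted p = 0.125). Of the 12 falls named by rule 4 also fell in det2, with AT5G02580 at -3.77 the steepest, and 1, AT1G76240, rose by 0.92 (adjusted p = 0.00383). COR27 changed by -0.07 in det2 (adjusted p = 0.853).

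Some other genes also differed between the 2 h step with BL and the det2 pair, and others did not pass. PUB19 rose 6.08-fold with BL, and in det2 averaged 40.9 in the light and 251.1 in the dark, a fall by 2.32 on the log2 scale (adjusted p = 0.000337). LEA4-5 averaged 10.1 in light-grown det2 and 950.3 in dark-grown det2, and the difference from its 2 h change with BL passed (adjusted p = 5.06e-05). LHCB4.3 rose by 2.42 with BL and changed by -0.45 in det2 (adjusted p = 0.0616), and these effects differed (adjusted p = 8.21e-06). For LHCB4.1 the 2 effects were 0.97 and 0.60, and their difference did not pass (adjusted p = 0.264). PSAN rose by 2.03 with BL and by 1.93 in det2, with no difference that passed (adjusted p = 0.779). Cpn60beta2 rose by 2.57 with BL and changed by 0.17 in det2 (adjusted p of the difference = 5.55e-05).

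**Figure D5:**
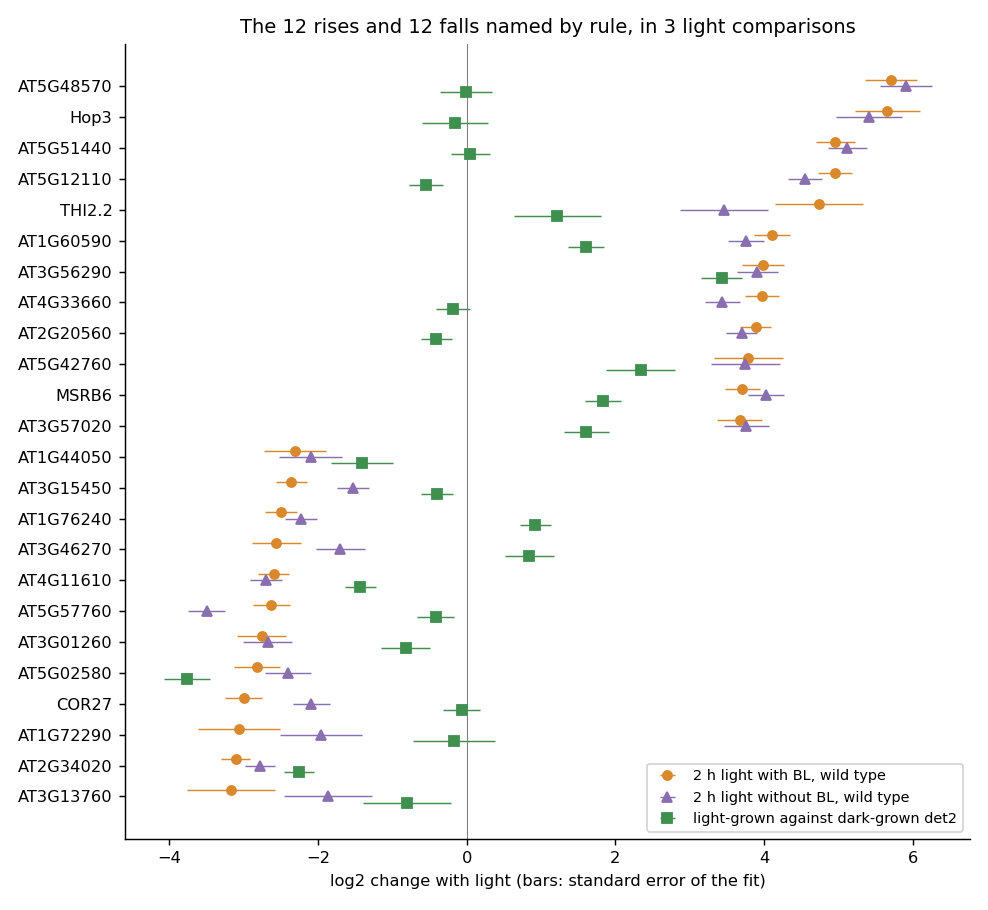
Log2 change with light for the 12 rises and 12 falls named by rule, in wild type after 2 h with BL (orange circles), in wild type after 2 h without BL (purple triangles) and in det2 grown in light against dark (green squares), with bars of 1 standard error of the fit. All wild-type symbols lie on the same side of 0 within a gene, while the det2 squares lie near 0 for AT5G48570, Hop3 and AT5G51440 and near the others for AT3G56290.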

How the data were processed

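RNA of Arabidopsis seedlings was hybridised to 1-colour arrays of 22810 probe sets. The authors deposited intensity values on a linear scale in a table of 14 arrays. The submitters' processing notes list MAS5 and limma; their versions and the genome build are not given in the sources used here. The deposited intensity had a mean of 500 on every array after trimming 2% at each end, and each array was set to that mean again. Detection calls were not used here, and the number of arrays limits the precision.

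The 64 control probe sets and 4959 with a mean under 50 over all arrays were left out. Values were tested as log2(signal + 16), with a mean for each of the 7 groups fitted to all 14 arrays in limma 3.58.1 (R 4.3.3, variance trend), so the groups share the estimate of the spread. P-values were adjusted by Benjamini-Hochberg within each comparison, with a threshold of 0.05 and no minimum fold. Folds are on this scale and understate changes of dim genes; where a group mean was under 16 they are given as at least that value. The script was tested on simulated data. Figures were drawn with matplotlib 3.10.9.

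Groups came from sample titles and descriptions. Gene names came from the supplied platform annotation, in which 13513 probe sets have 1 gene, 503 several and 8794 no name here. RefSeq entries (TAIR10.1) matched 13436 of the 13513, and 1551 have a symbol beyond the locus identifier. For genes with several probe sets the one with the highest mean was used. The 24 gene lists held 649 symbols, of which 106 genes were named and 104 tested. Removed were 5 matches to another gene of the same symbol. The 22 families were taken by symbol, with 2 exceptions: the plastid genome was taken by chromosome, and AT5G48570 was added to the co-chaperones by its locus. Lists, families and the comparisons were chosen with earlier results of these data known. No set test was run. Named genes include the 12 rises and 12 falls with the largest value of the smaller change of the 2 replicate pairs. These were taken among calls with 1 gene whose groups did not overlap. The other named genes are up to 4 called members of a list, up to 3 of a family, and HYH, FHL, GI, EXO, EXPA8 and LHCB4.2. Values of Hop1, Hop2, Fes1B, Fes1C, Cpn60beta3, Cpn60beta4, PRK and UGT78D1 were added after they had been seen.

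Deviations from the group mean of same-numbered arrays correlated between 0.226 and 0.429 for the 6 pairs of wild-type groups (0.333 for the BL-treated pair), and between -0.048 and 0.042 for all others, so the numbers were read as pairing the wild-type arrays. The reported fit had no term for the replicate number, so its p-values and calls make no use of this pairing. Results with the replicate number as a block are given as alternatives only. Alternatives changed the added constant (1 and 64), the filter (none, or a mean of 100), the scaling (quantile), the variance trend, the arrays fitted, the replicate block and each array left out.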

Additional observations from a re-analysis of the deposited data

Results flagged for a closer look

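Among the named genes, GH9B17 and CYP71B37 had changes of one sign in both replicate pairs with BL and of the other sign in both pairs without it. Both were named for passing with BL and flagged by their signs, so the gap between their effects is not a result. GH9B17, an endoglucanase of glycosyl hydrolase family 9, read 116.2 and 133 in BL-treated light seedlings, against 19.3 and 59 in BL-treated dark seedlings. In untreated seedlings it read 34.6 and 12.6 in light, against 36.1 and 50.2 in the dark, so the untreated replicate 1 arrays hardly differed. Its light effect with BL minus that without was 2.07 ± 0.63 SE on the log2 scale, which did not pass over all probe sets (adjusted p = 1.0). CYP71B37, a cytochrome P450, read 148.3 and 145.7 in BL-treated light seedlings, against 78.1 and 62.7 in BL-treated dark seedlings. In untreated seedlings it read 61.2 and 46.9 in light, against 79.2 and 80.2 in the dark, and the difference of the effects was 1.38 ± 0.39 SE (adjusted p = 1.0). The rise with BL was 2.73-fold for GH9B17 (adjusted p = 0.0392) and 1.89-fold for CYP71B37 (adjusted p = 0.0354). The GH9B17 rise was lost without either light array or replicate 1 of the dark group (adjusted p between 0.117 and 0.309). The CYP71B37 rise was lost without any of the 4 arrays (adjusted p between 0.0732 and 0.178).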

How the results depend on the processing

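The count of 3087 probe sets changed by light with BL was 1979 when the wild-type arrays were fitted alone with no block, 1981 when the 4 arrays were fitted alone with no block, and between 1989 and 2630 with single arrays left out. Fewer arrays then estimate the spread. With the replicate number as a block it was 3516 over the wild-type arrays, 3553 over all arrays (3087 of the calls shared) and 3645 over the 4 arrays alone, an alternative chosen after seeing the data. All other settings gave between 2747 and 3164. The difference in light effect with and without BL, 0 in the reported fit, had 2 calls with the constant 64, 1 call without the variance trend and 2 calls with the replicate block over the wild-type arrays; the cause was not tested, and it stayed at 0 with the block over all arrays and with each wild-type array left out. The count for light without BL, 3526, was 2253 over the wild-type arrays alone, 3924 and 4015 with the block, and between 2658 and 3008 with single arrays left out. Of 101 named genes with a call, 68 kept it in every setting in which they were tested and 70 with each of the 4 arrays left out, and no named gene with a call changed direction. Of 1763 values of named genes under other settings, 140 lost and 13 gained a call, among them EXO, EIN3 and RR16 with a block. The block moved none of these 3 counts over all probe sets by over 1.5 times except the difference. Over the wild-type arrays it moved list counts by over 1.5 times for cell wall, antioxidant, co-chaperone, cold and dehydration, endoglucanase, TBL, tau glutathione transferase, CYP71B, carboxypeptidase-like, expansin and xyloglucan genes, as given with the lists above where printed. Starvation falls went from 3 to 5 and ATG8 falls from 1 to 2 with the block over all arrays. IQD rises went from 1 to 2 with the block over the 4 arrays alone. Some lists with no call gained calls with a block, among them the plastid genome and the ethylene and cytokinin list. Signals below the constant, as for THI2.2 and UGT84A1 in the dark, carry no order, and with 2 arrays a group small changes were not detectable.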
